A study of Mus musculus with 4 samples.

Results

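The proteasome is the protease complex that degrades ubiquitin-tagged proteins in the cytosol and nucleus. Its barrel-shaped core particle is built from rings of alpha subunits (Psma genes), which gate the entry, and rings of beta subunits (Psmb genes), some of which cut the protein chain. A regulatory particle caps the barrel: its ATPases (Psmc genes) unfold the substrate, and its non-ATPase subunits (Psmd genes) receive the substrate and remove the ubiquitin. In immune cells and under interferon the catalytic beta subunits can be replaced by Psmb8, Psmb9 and Psmb10, giving the immunoproteasome, which shapes the peptides shown on MHC class I. Psme1 encodes the alpha subunit of the interferon-inducible activator PA28.

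Proteasome genes were taken as all genes whose only platform symbol begins with Psma, Psmb, Psmc, Psmd, Psme or Psmg followed by a number, and 48 of 18193 named genes fitted. They comprised 8 core alpha genes, 7 constitutive core beta genes, 4 immunoproteasome genes (Psmb8, Psmb9, Psmb10 and Psme1), 6 ATPase genes and 14 non-ATPase genes of the regulatory particle, 2 further activators (Psme3 and Psme4), 4 assembly chaperones (Psmg1 to Psmg4), and Psmb11, the thymus-specific beta subunit. The pattern also took in 2 genes that encode no proteasome subunit, Psmc3ip, a partner of recombinases in meiosis, and Psme3ip1, an interactor of PA28 gamma. The probe set for Psme2, which encodes the other PA28 subunit, carries a second symbol and is not analysed here. The non-ATPase group includes Psmd5, Psmd9 and Psmd10, whose products are chaperones that help to assemble the base of the cap and are not resident subunits. Of the 48 genes, 46 had a value on at least 1 array at or over the median of the whole table (3.29 on the log2 scale), which served as the floor. Psmb11 and Psmg4 did not. Psmg1 and Psmc5 reached it on some arrays only, Psmc5 only on the wild-type GMP array, so that gene passed through the array where it was high. The other 44 were above it on all 4 arrays.

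Expression was measured on Affymetrix mouse arrays in 4 sorted, unstimulated cell samples of a mixed C57BL6J/129SV background: Trib1-/- GMP, WT GMP, Trib1-/- MDP and WT MDP. GMP are granulocyte monocyte progenitors, and MDP is the label of cells whose type is given as macrophage dendritic cell. Trib1 encodes a pseudokinase that brings C/EBP factors to the COP1 ubiquitin ligase, which marks them for the proteasome. The sources used here give neither the age of the mice nor the sort gates nor how many animals stand behind each array, nor how the Trib1 allele was made. With 1 array in each group, the differences lack any check by replicates, no test was made, no p-value is given, and the number of arrays limits the precision. Values are log2 RMA values, and a difference of 1 is 2-fold.

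As a yardstick that leaves out the variation between animals, sorts and arrays, the SD between probe sets of 1 gene was 0.372 for the genotype difference in GMP, 0.383 for that in MDP, 0.543 for MDP minus GMP in WT and 0.422 in Trib1-/-. The 2 Trib1 probe sets read higher on the Trib1-/- than on the WT GMP array (by 0.34 and 0.15) and lower in MDP (by -0.41 and -0.43). Where they lie relative to the deleted part is not given, so they do not check the genotype labels. Both GMP arrays had all 8 GMP markers (among them Elane, Mpo and Kit) over the floor. So were 7 of them on the WT MDP and 6 on the Trib1-/- MDP array. All 8 read lower in MDP than in GMP in both genotypes, with medians of -3.21 in WT and -2.84 in Trib1-/-. Of the 6 MDP markers, Csf1r, Irf8, Flt3 and, by 0.34 in WT and 0.30 in Trib1-/-, Cx3cr1 read higher in MDP than in GMP in both genotypes. Cd34 read lower in MDP (-1.35 in WT and -0.69 in Trib1-/-) but above the floor, and Kit, the stem cell factor receptor carried by early progenitors, was below the floor on both MDP arrays (2.69 in Trib1-/- and 2.43 in WT). The bacterial hybridisation control BioB read 10.2 on the Trib1-/- GMP, 9.82 on the WT GMP, 10.4 on the Trib1-/- MDP and 10.5 on the WT MDP array, so its lowest value was on the array where proteasome genes were highest. The Gapdh control read higher at its 3 prime than its 5 prime end by 1.20 in Trib1-/- GMP and 1.06 in WT GMP. In Trib1-/- MDP that gap was 1.66, and in WT MDP 1.44. For Actb the gap was 1.91, 2.01, 1.67 and 2.01 in the same order. The part of these controls in the results was not tested.

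Promoter sequence puts the genes in context, and the stretches below are those of the 2 genes with lower values in Trib1-/- GMP by at least 2-fold that had an entry (Psmb8 and Psmd4), of the constitutive counterparts Psmb5 and Psmb6, and of the ATPase gene Psmc6, which holds matches to 2 of the motifs. Each is the 250 bases before the annotated start on the strand of the gene, from RefSeq, build GRCm38.p6. They lie at chr17:34197945-34198194 on the plus strand for Psmb8, chr3:95042615-95042864 on the minus strand for Psmd4, chr14:54617996-54618245 on the minus strand for Psmb5, chr11:70525107-70525356 on the plus strand for Psmb6 and chr14:45329574-45329823 on the plus strand for Psmc6. Capitals mark the letters TGACNNNGC (the core of the antioxidant response element, the type of site that NRF1, the activator of proteasome genes, binds), GAAA followed by any 2 bases and GAAA again (a type of site for interferon regulatory factors), CCGGAAG (a type of site for ETS factors) and CCAAT, on either strand. In the printed stretches the matches do not overlap.
Psmb8: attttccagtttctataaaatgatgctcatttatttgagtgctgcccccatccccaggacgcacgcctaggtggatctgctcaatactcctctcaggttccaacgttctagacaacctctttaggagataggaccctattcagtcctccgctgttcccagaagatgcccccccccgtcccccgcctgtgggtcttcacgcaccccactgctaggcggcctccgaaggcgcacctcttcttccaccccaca
Psmd4: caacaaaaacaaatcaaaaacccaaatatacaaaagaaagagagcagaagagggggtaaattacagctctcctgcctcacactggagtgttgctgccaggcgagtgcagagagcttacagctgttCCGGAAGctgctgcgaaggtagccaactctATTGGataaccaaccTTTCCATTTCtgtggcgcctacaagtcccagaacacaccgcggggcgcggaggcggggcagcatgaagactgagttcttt
Psmb5: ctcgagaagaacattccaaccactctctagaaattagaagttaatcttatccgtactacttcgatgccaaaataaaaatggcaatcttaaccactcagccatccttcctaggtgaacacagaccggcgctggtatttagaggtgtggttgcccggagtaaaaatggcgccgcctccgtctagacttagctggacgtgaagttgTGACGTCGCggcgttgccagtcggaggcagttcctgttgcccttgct
Psmb6: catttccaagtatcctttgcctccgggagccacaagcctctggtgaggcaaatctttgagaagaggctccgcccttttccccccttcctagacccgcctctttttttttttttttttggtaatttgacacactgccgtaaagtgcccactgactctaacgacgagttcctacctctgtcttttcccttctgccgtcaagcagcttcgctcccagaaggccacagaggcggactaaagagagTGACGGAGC
Psmc6: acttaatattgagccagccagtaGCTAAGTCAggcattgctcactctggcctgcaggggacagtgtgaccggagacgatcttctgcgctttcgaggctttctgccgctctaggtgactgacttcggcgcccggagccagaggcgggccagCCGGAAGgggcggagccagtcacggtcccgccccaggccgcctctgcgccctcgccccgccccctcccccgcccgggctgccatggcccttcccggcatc
In Psmb5 the antioxidant type match begins 47 bases and in Psmb6 9 bases before the start, while the stretch of Psmb8 holds none of the 4 motifs.

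The motifs were counted in windows of 300 bases, 250 before and 50 after the start, and 40 of the 48 genes had an entry, with 43 windows. The antioxidant type was in 6 of the 43 windows (Psmb5, Psmb6, Psmc6, Psmd9, Psmd12 and Psme4), or 14.0%, against 12.4% of all 32851 windows and 14.3% of the 11951 windows of genes above the floor. The interferon type was in 5 (Psmb3, Psmd4, Psmd9, Psme1 and Psmg4), or 11.6%, against 3.44% of all and 3.07% of those above the floor. The ETS type was in 17 windows of 16 genes, or 39.5%, against 8.86% of all and 16.3% of those above the floor. CCAAT was in 16, or 37.2%, against 37.4% of all and 37.3% of those above the floor. These shares are descriptions of letters in a window and show no binding.

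Across the 4 arrays, proteasome genes read highest in WT GMP. Of the 46 genes above the floor, 41 (89.1%) had their highest value on that array, where 37.1% of all 11653 genes above the floor had theirs. The lowest value lay in Trib1-/- MDP for 22 genes, in WT MDP for 20, in WT GMP for 4 and in Trib1-/- GMP for 0, where 23.9%, 27.5%, 29.6% and 18.98% of all genes had their lowest value on these arrays. The median level of the 46 genes was 5.97 in Trib1-/- GMP and 6.61 in WT GMP, and 5.47 in Trib1-/- MDP and 5.69 in WT MDP. The median over all genes above the floor was 4.75, 4.85, 4.71 and 4.72 on the same arrays. In bulk samples such as these, fewer cells of a type and less RNA per cell cannot be told apart.

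**Figure D1:**
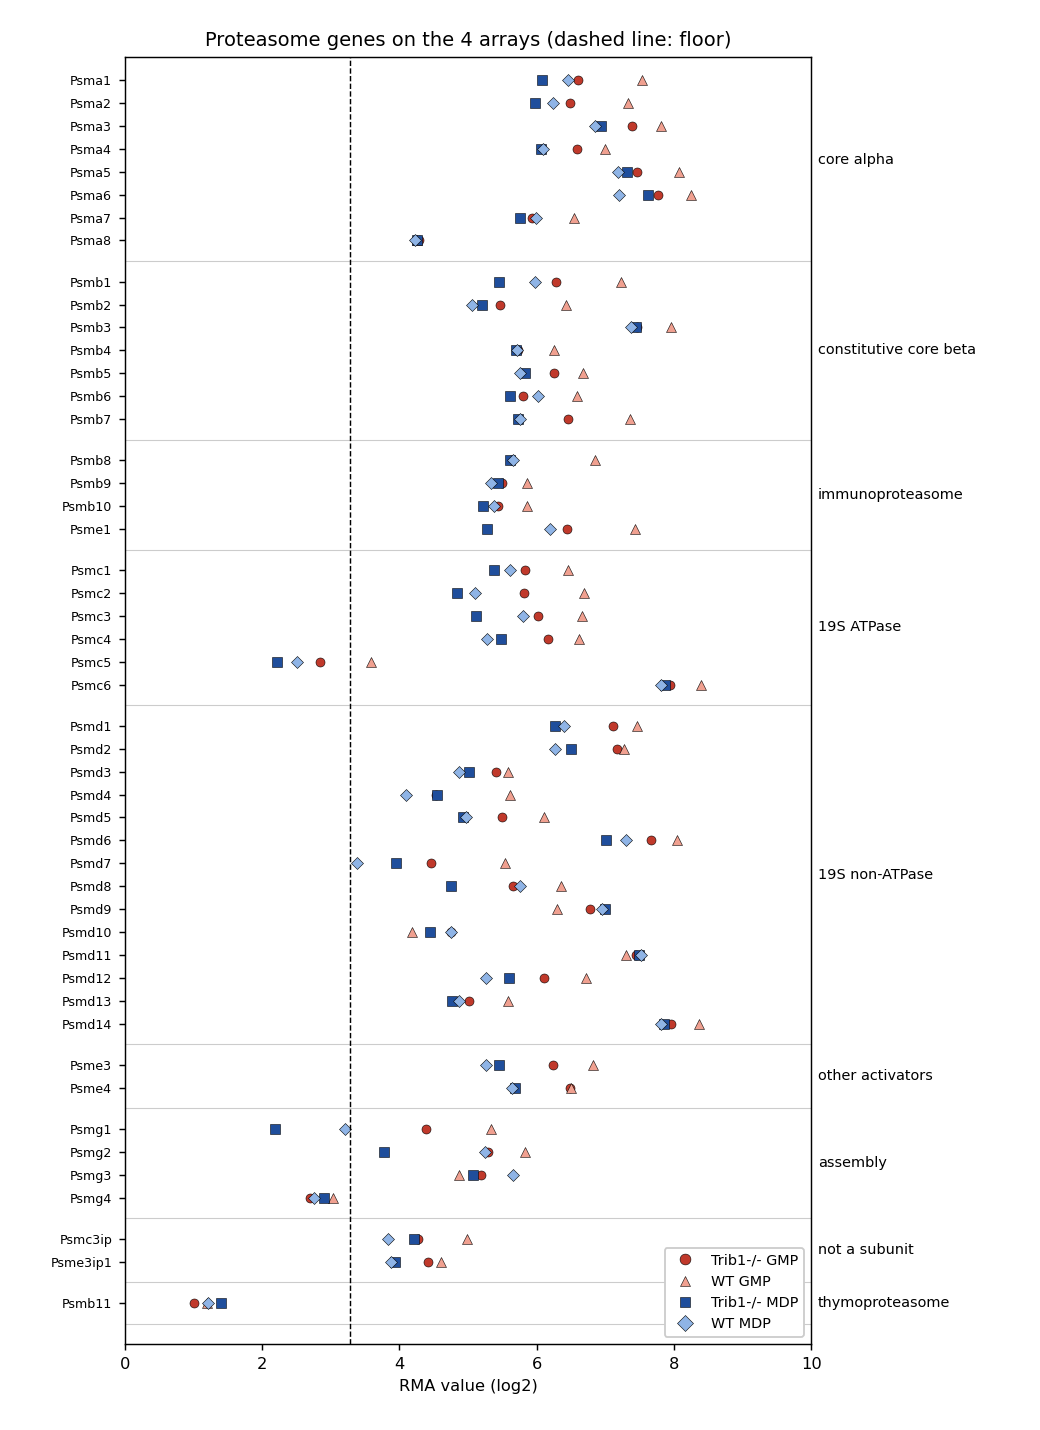
RMA values (log2, horizontal axis) of the 48 proteasome genes on the 4 arrays, by class, with 1 symbol per array and the floor as a dashed line. The WT GMP triangle is the rightmost symbol for 41 of the 46 genes above the floor, while Psmd9, Psmd10, Psmd11 and Psmg3 have it at the left.

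The first comparison asked how these genes differ between Trib1-/- and WT GMP. Proteasome genes read lower in Trib1-/- GMP as a group: 41 of the 46 were below 0, where 55.2% of all genes were, and the median difference was -0.55, with an interquartile range from -0.78 to -0.39, against a median of -0.06 over all genes. Most differences were smaller than 2-fold. At that size 3 genes were lower (Psmb8, Psmd7 and Psmd4) and 0 higher, where 3.64% of all genes were that far apart, 3.16% lower and 0.481% higher, so the shift lay in many small differences rather than in a few large ones. Over 2788 other genes of like level (a mean within the interquartile range of the proteasome genes) the median was -0.08. Over all 48 proteasome genes, with no floor, 43 were below 0 and the median was -0.53.

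Core alpha genes, which form the gate, had a median of -0.55, with 7 of 8 below 0. Psma1 read 6.61 in Trib1-/- GMP and 7.54 in WT GMP (-0.93), although a weaker probe set of Psma1 above the floor gave 0.17. Psma2 read 6.48 and 7.33 (-0.85). Psma8, the testis-type alpha subunit, read 4.29 in Trib1-/- GMP and 4.26 in WT GMP, and its 4 values spanned only 4.23 to 4.29. The other alpha genes lay between -0.62 and -0.40 by the chosen probe sets. Their further probe sets above the floor gave 0.40 for Psma3, 0.11 and -0.84 for Psma6, -0.64 for Psma5 and -1.14 for Psma7. All 7 constitutive beta genes were below 0, with a median of -0.80, the lowest of the classes. Psmb1 read 6.28 in Trib1-/- GMP and 7.24 in WT GMP (-0.96), and Psmb2 read 5.47 and 6.42 (-0.95). The catalytic genes Psmb7 (trypsin-like site), Psmb6 (caspase-like site) and Psmb5 (chymotrypsin-like site) differed by -0.90, -0.80 and -0.42, and Psmb4 and Psmb3 by -0.53 and -0.49.

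Immunoproteasome genes had a median of -0.71, with all 4 below 0, but they differed among themselves. Psmb8, whose product takes the chymotrypsin-like site, read 5.63 in Trib1-/- GMP against 6.85 in WT GMP, a difference of -1.23 or 2.34-fold lower. Its values in Trib1-/- MDP (5.61) and WT MDP (5.66) lay next to that of Trib1-/- GMP, so WT GMP alone stood apart. Psme1 read 6.44 in Trib1-/- GMP and 7.44 in WT GMP (-0.9999), just outside the 2-fold rule. Psmb9 read 5.49 and 5.86 (-0.37) and Psmb10 5.43 and 5.86 (-0.43). Set against its constitutive counterpart, Psmb8 was lower than Psmb5 by -0.81 in this contrast, whereas Psmb9 against Psmb6 and Psmb10 against Psmb7 gave 0.42 and 0.48. The exchange partners therefore had no common direction, and these differences were not tested.

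**Figure D2:**
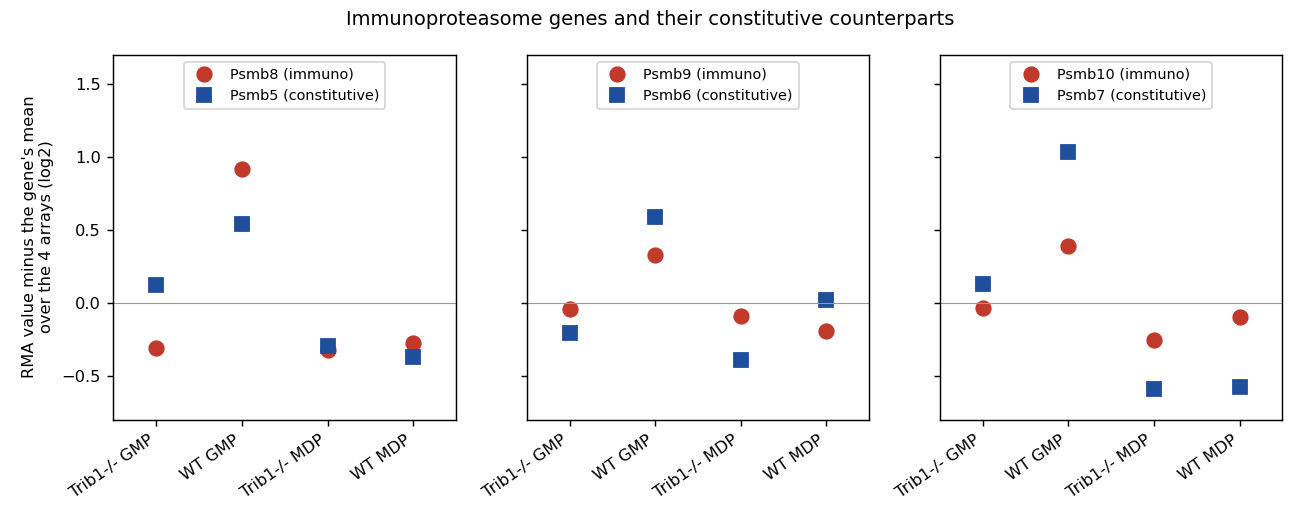
RMA values minus the mean of each gene over the 4 arrays (log2, vertical axis) for the immunoproteasome genes (circles) and the constitutive genes they replace (squares) on the 4 arrays. All 6 genes have their highest value in WT GMP, and the size of that excess differs: it is larger for Psmb8 than for Psmb5, and smaller for Psmb9 and Psmb10 than for Psmb6 and Psmb7.

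The 6 ATPase genes were all below 0 in GMP (median -0.63). Psmc2 read 5.81 in Trib1-/- GMP and 6.69 in WT GMP (-0.88), and Psmc6, at the other end, 7.95 and 8.39 (-0.44), with Psmc3, Psmc1 and Psmc4 between them at -0.64, -0.62 and -0.46. Psmc5 read 2.85 and 3.59 (-0.74), but its Trib1-/- value was below the floor and the difference was -0.30 with that value raised to it. The non-ATPase genes were more spread (median -0.40, 11 of 14 below 0). Psmd7, a scaffold partner of the deubiquitinase in the lid, read 4.46 in Trib1-/- GMP and 5.54 in WT GMP (-1.08). Psmd4, the ubiquitin receptor, read 4.54 and 5.60 (-1.07). The deubiquitinase gene Psmd14 differed by -0.41. Of the remaining genes of the class, 8 lay between -0.70 (Psmd8) and -0.10 (Psmd2). The 3 genes of this class above 0 were Psmd10 (0.56), Psmd9 (0.49) and Psmd11 (0.15), and the first 2 of them encode assembly chaperones. Without Psmd5, Psmd9 and Psmd10 the class median was -0.41.

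Of the other activators, Psme3, which encodes PA28 gamma of the nucleus, read 6.24 in Trib1-/- GMP and 6.82 in WT GMP (-0.58), and Psme4, which encodes PA200, read 6.49 on both arrays (-0.003). Among the chaperones of core assembly, Psmg1 read 4.39 and 5.34 (-0.95), Psmg2 5.29 and 5.83 (-0.53) and Psmg3 5.20 and 4.87 (0.33). A second probe set of Psmg3 read the other way (-0.31).

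Different probe sets of a gene did not always agree in these data. The 46 genes had 80 probe sets above the floor, of which 60 were below 0 in GMP, with a median of -0.48. Among the 34 probe sets not chosen to represent their gene, 18 had the sign of the chosen one, and in 9 of the 23 genes with several all had 1 sign. The SD between probe sets of these 23 genes was 0.480, close to the size of many of the differences between the arrays. A second probe set of Psmb4 gave -1.42 where the chosen one gave -0.53, and a second one of Psma7 gave -1.14 where the chosen one gave -0.62. Psmd4 had a probe set at 0.46, and the 2 further ones of Psmd7 gave -0.07 and 0.34. When all probe sets of a gene, also those below the floor, were averaged the group median was -0.41 and 0 genes were 2-fold lower. With each array centred on its own median the group median was -0.45 with 1 gene 2-fold lower. Centring took the median of all genes to 0.05, against -0.06 without it.

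The second comparison asked the same question in MDP, where proteasome genes as a group were centred near 0. The median difference was -0.02 (interquartile range -0.28 to 0.10), against 0.01 over all genes, with 25 of 46 below 0 where 48.5% of all genes were. At least 2-fold lower were 3 genes and higher 0, where 2.63% of all genes were that far apart, 1.53% lower and 1.1% higher. The 3 lower genes were Psmg2, Psmg1 and Psmd8. By class, the medians were 0.003 for core alpha, -0.02 for constitutive beta, -0.10 for immunoproteasome, -0.25 for ATPase and 0.002 for non-ATPase genes.

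Of the 4 chaperones of core assembly, Psmg2 and Psmg3 were above the floor on the MDP arrays and read lower in Trib1-/-. Psmg2 and Psmg1, which encode the partners of a heterodimer that helps to build the alpha ring, read 3.77 and 2.19 in Trib1-/- MDP against 5.24 and 3.21 in WT MDP, differences of -1.47 and -1.02. Both Psmg1 values were below the floor, so that difference is uncertain and was 0 with low values raised to it. Psmg4, below the floor on all arrays, read 2.90 in Trib1-/- MDP and 2.75 in WT MDP. Psmg3 read 5.08 in Trib1-/- MDP and 5.66 in WT MDP (-0.58), and its second probe set, below the floor on both MDP arrays, gave 0.77. The further probe sets of Psmg2, which are weak, gave -0.56 and -0.15. Pomp, the maturation factor of the beta ring, which the symbol rule does not take in, read 4.76 in Trib1-/- MDP and 5.82 in WT MDP (-1.06), after 5.68 in Trib1-/- GMP and 6.56 in WT GMP (-0.88).

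Psmd8, a lid subunit, read 4.76 in Trib1-/- MDP and 5.76 in WT MDP (-1.003). Psme1 read 5.27 and 6.20 (-0.93), just outside the 2-fold rule as in GMP, and Psmc3 read 5.12 and 5.81 (-0.69). The other immunoproteasome genes were close to 0, with Psmb8 at -0.05, Psmb9 at 0.10 and Psmb10 at -0.16. At the upper end Psmd7 read 3.96 in Trib1-/- MDP and 3.38 in WT MDP (0.58), Psmd4 4.54 and 4.10 (0.44), and Psma6 7.62 and 7.20 (0.42). Psmd7 and Psmd4 thus read lower in Trib1-/- GMP and higher in Trib1-/- MDP than in the matching WT cells, and that difference of differences was not tested.

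The GMP and MDP genotype differences have no array in common. Over the 46 genes, 22 were lower in Trib1-/- cells of both kinds, 19 lower in GMP and higher in MDP, 3 higher in GMP and lower in MDP, and 2 higher in both. Of all 11653 genes above the floor, 25.6% were lower in both, 29.5% lower in GMP and higher in MDP, 22.9% higher in GMP and lower in MDP, and 21.6% higher in both. The correlation across these genes was 0.09 (Pearson) and 0.15 (Spearman), over genes that share arrays and are not independent replicates, and -0.01 and -0.03 over all genes above the floor.

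**Figure D3:**
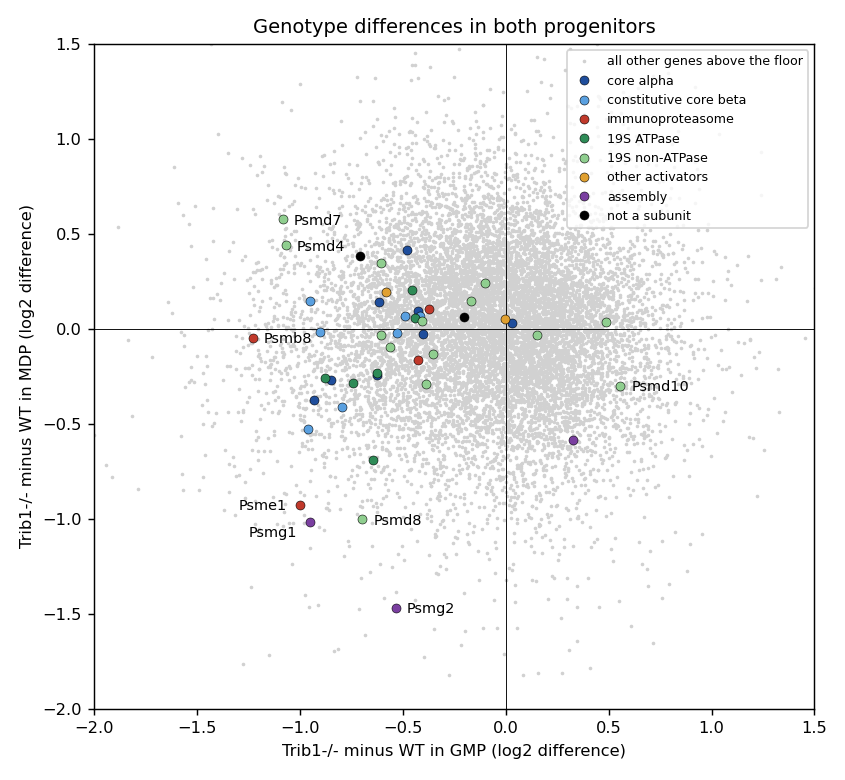
Log2 difference Trib1-/- minus WT in GMP (horizontal axis) against that in MDP (vertical axis) for the 46 proteasome genes above the floor, coloured by class, over all other genes above the floor in grey; grey points beyond the axes are not drawn. Most proteasome genes lie left of 0 and are scattered around 0 vertically, with Psmg2, Psmg1, Psmd8 and Psme1 at the lower left.

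The third comparison, between the progenitors, showed lower proteasome values in MDP in both genotypes. In WT the median difference MDP minus GMP was -0.90, with 42 of 46 genes below 0 where 52.6% of all genes were. At least 2-fold lower in WT MDP were 20 genes and higher 0, where 16.6% of all genes were that far apart, 12.4% lower and 4.16% higher. Psmc5 and Psmg1 were among the lower genes and reached the floor only on GMP arrays. Of the 44 genes above it on all 4 arrays, 18 were 2-fold lower. In Trib1-/- cells the median was -0.45, with 43 of 46 below 0 where 51.3% of all genes were. There 3 genes were 2-fold lower (Psmg1, Psmg2 and Psme1) and 0 higher, where 6.82% of all genes were that far apart, 4.08% lower and 2.75% higher. Of the 44 genes above the floor on all 4 arrays, which leave out Psmg1, 2 were 2-fold lower in Trib1-/-. The WT contrast and the GMP genotype contrast share the WT GMP array, on which 41 of the genes were highest. The Trib1-/- contrast does not use that array, but shares 1 array with each genotype contrast.

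Among the regulatory genes, Psmd7 read 3.38, just over the floor, in WT MDP and 5.54 in WT GMP (-2.16). It read 3.96 in Trib1-/- MDP and 4.46 in Trib1-/- GMP (-0.50). The further probe sets of Psmd7 gave -0.01 and -0.08 in WT. Psmc2 differed by -1.59 in WT and -0.97 in Trib1-/-, Psmc4 by -1.35 and -0.69, Psmd12 by -1.46 and -0.51, and Psmd4 by -1.503 and 0.003. Further probe sets of Psmd4 gave -0.58 and 0.41 in WT. The ATPase genes had medians of -0.97 in WT and -0.66 in Trib1-/-, which were -0.85 and -0.57 with the low values of Psmc5 raised to the floor, and the non-ATPase genes had -0.73 and -0.45. Psmd9 and Psmd11 were above 0 in both genotypes. Psmd9 read 6.96 in WT MDP and 6.30 in WT GMP (0.66), and 6.99 in Trib1-/- MDP and 6.78 in Trib1-/- GMP (0.21). Its weaker probe sets gave 0.36 and -0.91 in WT. Psmd11 differed by 0.22 in WT and 0.03 in Trib1-/-, and Psmd10 by 0.56 and -0.30.

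In the core, Psmb7 read 5.75 in WT MDP and 7.36 in WT GMP (-1.61), and 5.74 in Trib1-/- MDP and 6.46 in Trib1-/- GMP (-0.72). Psmb1 differed by -1.26 in WT and -0.83 in Trib1-/-. Psmb3 and Psmb4 were lower in WT MDP (-0.58 and -0.55) and near 0 in Trib1-/- (-0.01 and -0.04) by the chosen probe sets. The second probe set of Psmb3 gave -0.55 in WT and -0.58 in Trib1-/-, and that of Psmb4 -1.66 and -0.45. All 15 core genes, alpha and constitutive beta together, were below 0 in both genotypes, with medians of -0.91 in WT and -0.26 in Trib1-/-, by the chosen probe sets. For Psma1 the chosen probe set gave -1.08 in WT and -0.53 in Trib1-/-, and a weaker one above the floor 0.93 and 0.58. With all its probe sets averaged, Psma1, MDP minus GMP in WT, was 0.0753. A weaker probe set of Psma3 above the floor gave 0.56 in WT and -0.06 in Trib1-/-. Those of Psma6 gave 0.18 and -0.12, and -1.65 and -0.85, in the same order.

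The immunoproteasome genes split in this contrast. Psme1 was lower in MDP by a like amount in both genotypes: 6.20 in WT MDP and 7.44 in WT GMP (-1.24), and 5.27 in Trib1-/- MDP and 6.44 in Trib1-/- GMP (-1.17). Psmb8 differed by -1.19 in WT and by -0.01 in Trib1-/-. Psmb9 gave -0.53 and -0.05 and Psmb10 -0.48 and -0.22 in the same order. The difference of Psmb10 exceeded that of Psmb7 by 1.13 in WT and 0.51 in Trib1-/-, since Psmb7 had the more negative difference of the pair.

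Psme3 was lower in MDP in both genotypes (-1.55 in WT and -0.78 in Trib1-/-), as was Psme4 (-0.85 and -0.80), although Psme4 had another probe set above the floor at 0.36 and 0.34 in the same contrasts, and further ones at -0.40 and -0.42 in WT. Psmg1 read 3.21 in WT MDP and 5.34 in WT GMP (-2.13), and 2.19 in Trib1-/- MDP and 4.39 in Trib1-/- GMP (-2.20). With its low MDP values raised to the floor these were -2.05 and -1.10. Psmg2 differed by -0.59 in WT and -1.52 in Trib1-/-, and Psmg3 by 0.79 and -0.12. The second, weak probe set of Psmg3 gave -1.09 and -0.01. Of the 2 genes that encode no subunit, Psmc3ip differed by -1.15 and -0.06, and Psme3ip1 by -0.74 and -0.48.

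**Figure D4:**
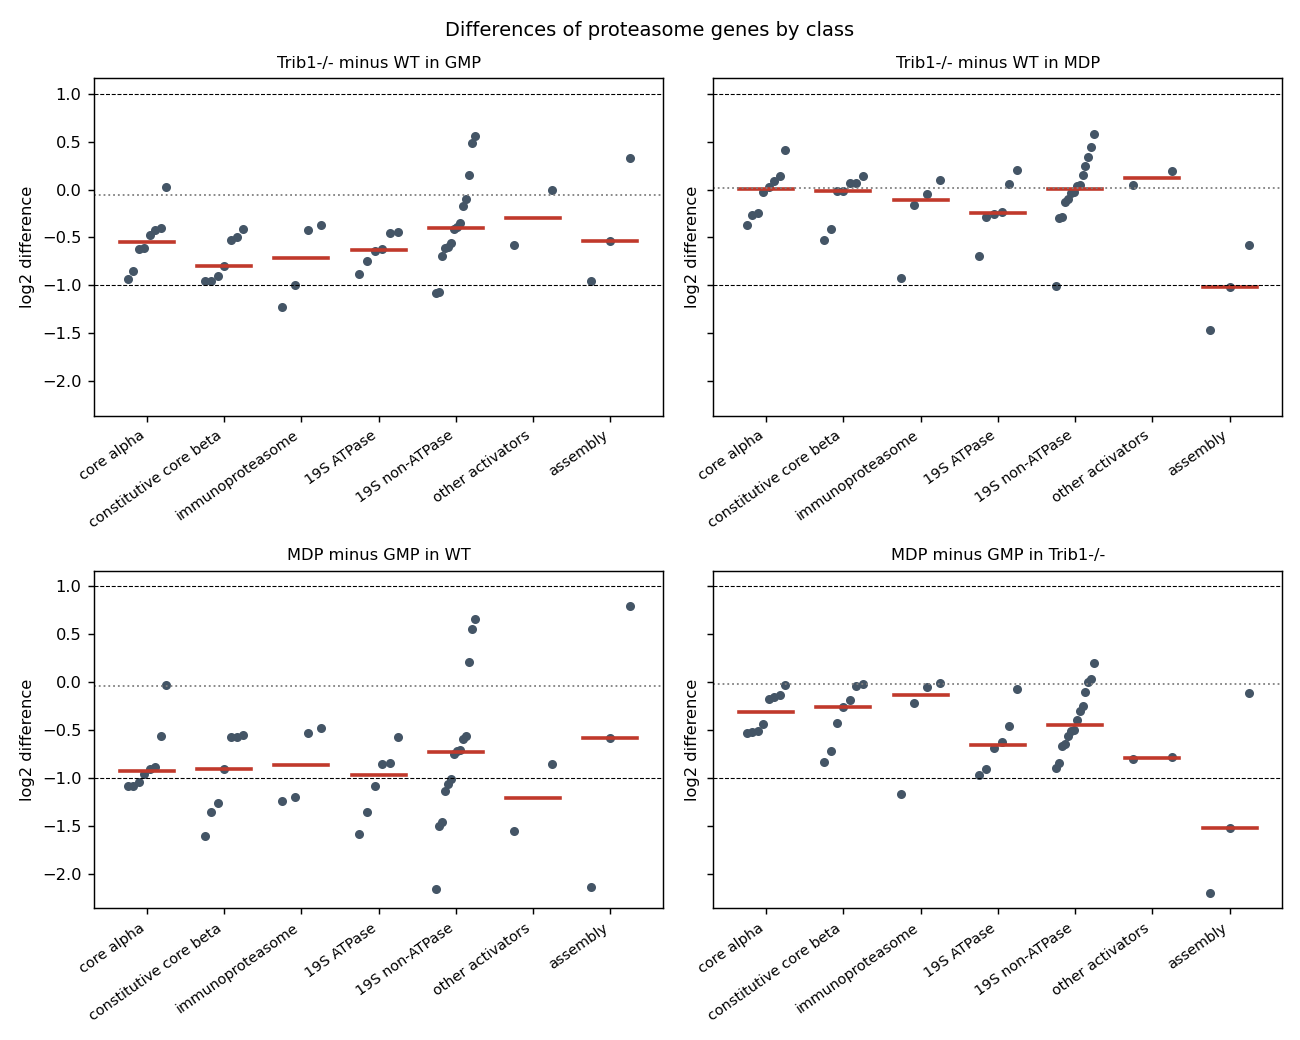
Log2 differences (vertical axis) of single genes (points) and the median (red bar) for 7 classes in each of the 4 contrasts; dashed lines mark 2-fold and the dotted line the median over all genes above the floor. The classes lie below the dotted line in Trib1-/- minus WT in GMP and in both MDP minus GMP panels, and around it in Trib1-/- minus WT in MDP apart from the assembly and ATPase genes.

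Genes that work with the proteasome but lie outside the symbol rule were set beside it. Of 18 listed symbols of partners, some of them older names, 14 were measured, and 11 of them were below 0 in Trib1-/- against WT GMP (median -0.46, 0 at least 2-fold), from Pomp at -0.88 to the deubiquitinase gene Usp14 at 0.48. In MDP their median was 0.20, with Pomp at -1.06 the only one 2-fold apart and Txnl1, a thioredoxin-like protein bound to the cap, highest at 0.63. In MDP minus GMP the medians were -0.79 in WT, with Uchl5, a deubiquitinase of the cap, lowest at -1.72, and -0.25 in Trib1-/-. Of 10 genes of the NRF1 pathway 9 were measured, with medians of -0.16 in GMP and 0.10 in MDP between genotypes and 0 genes at least 2-fold apart. Nfe2l1, which encodes NRF1, differed by -0.38 in GMP and 0.23 in MDP, and Nfe2l2, which encodes NRF2, by -0.77 and 0.10. Of 6 ubiquitin and E1 genes only Uba6 was measured (0.46 and -0.01).

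Genes of class I antigen presentation, which use the peptides that the immunoproteasome makes, had medians of -0.28 in Trib1-/- against WT GMP and -0.15 in MDP, with 0 of 12 at least 2-fold apart in either. In GMP B2m was lowest (-0.61) and Calr highest (0.12), and in MDP Tap2 was lowest (-0.62) and Calr highest (0.55). Of 12 interferon regulators 9 were above the floor. All 9 were below 0 in Trib1-/- against WT GMP (median -0.53), from Ifngr2 at -0.73 to Irf1 at -0.05, and 7 of 9 were above 0 in MDP (median 0.13). Irf1, a direct activator of Psmb9 transcription, read 5.80 in Trib1-/- GMP and 5.85 in WT GMP, and 5.89 in Trib1-/- MDP and 5.82 in WT MDP.

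Other large complexes and cell type markers also differed in these contrasts. In Trib1-/- against WT GMP the medians were -0.63 for 73 mitochondrial ribosomal protein genes, -0.57 for 46 cytosolic ribosomal protein genes and -0.78 for 39 NADH dehydrogenase genes, beside -0.55 for the proteasome genes. The NADH dehydrogenase set was taken by symbol and includes assembly factors, among them its lowest gene in GMP, Ndufaf2 (-1.42). The 8 genes of the CCT chaperonin had -0.40 and the 9 of the COP9 signalosome, a relative of the proteasome lid, -0.25. In MDP minus GMP in WT these sets had -0.86, -0.93, -1.05, -1.08 and -0.35, beside -0.90 for the proteasome, and in Trib1-/- -0.18, -0.50, -0.38, -0.66 and -0.22, beside -0.45. Lower values in Trib1-/- GMP were thus found for other complexes or families too.

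**Figure D5:**
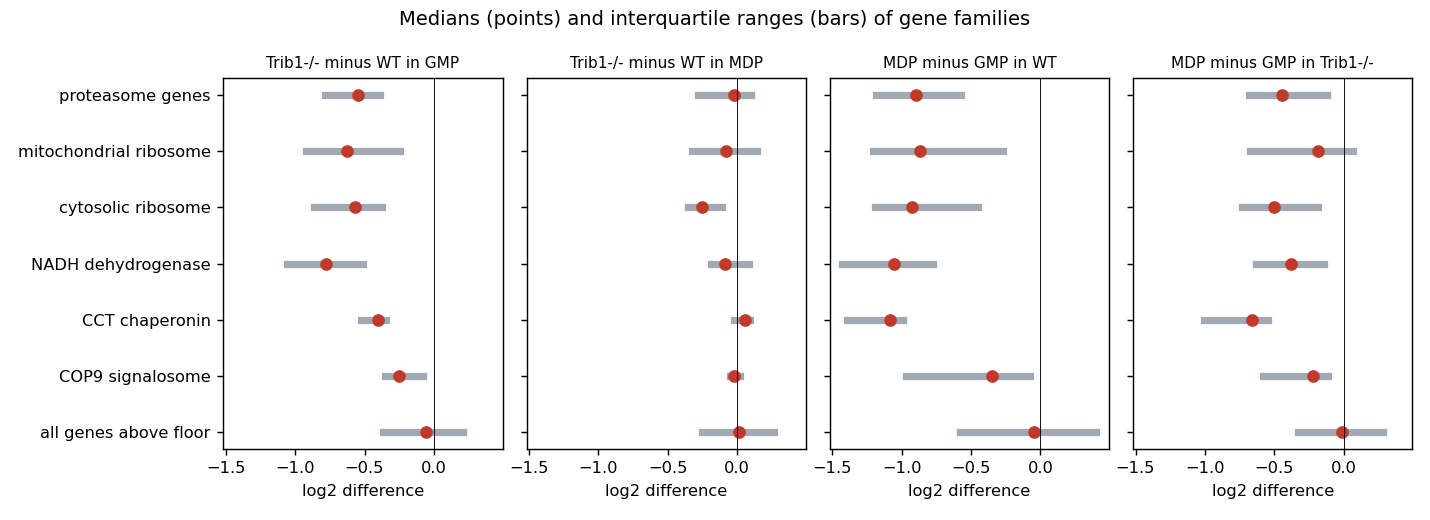
Medians (points) and interquartile ranges (bars) of the log2 differences of proteasome genes, 5 other complexes or families and all genes above the floor in the 4 contrasts. In Trib1-/- minus WT in GMP the proteasome genes (-0.55) lie between the ribosomal and NADH dehydrogenase families (-0.57 to -0.78) and the CCT and COP9 genes (-0.40 and -0.25).

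Basophil and mast cell markers were lower in Trib1-/- GMP for all 6 genes above the floor of 8 listed (log2 of the summed linear levels 7.07, against 8.45 in WT GMP), and 9 of 11 measured cycling cell markers were also below 0 (median -0.44). Of the basophil and mast cell markers, Gzmb reached the floor only on the WT GMP array (4.99), so it passed through the array where it was high. In MDP all 8 macrophage markers above the floor of 10 listed were lower in Trib1-/- (summed levels 6.77, against 8.92 in WT MDP), and C1qa and C1qc were below the floor on all arrays. Likewise C1qb reached the floor only on the WT MDP array (4.27) and passed through it. The dendritic cell list had summed levels between 6.35 and 6.91 on the 4 arrays, the lymphocyte list between 5.44 and 6.36, and all 5 measured erythroid markers were below the floor on every array. The part of these cells in the proteasome values was not tested.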

How the data were processed

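RNA from 4 sorted samples was hybridised to 1 array each. Per the labels' protocols, Trizol was used for extraction and the NuGEN Ovation system for biotinylated cRNA. The authors computed the deposited values with RMA, per the submitters' processing notes, and the sources used here give no version of it. The deposited log2 values were used as they stand; the log2 scale is inferred from their range (0.14 to 14.5). RMA makes the distributions of the arrays alike, so total RNA per cell cannot be seen. Array medians lay between 3.27 and 3.31. Of 45101 probe sets 64 were controls, 34945 had 1 symbol, 932 several and 9160 were not listed. A table of RefSeq genes held the identifiers of 34741 and changed 0 symbols.

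For each gene the probe set of highest mean value stood for it, and the gene was used where its highest value reached the median of the table (11653 genes). Differences and medians were computed with Python 3.11.15 and pandas 2.3.3, and a difference of at least 2-fold was counted. No model was fitted: with 1 array per group, an additive model of genotype and progenitor would have only their interaction as its error. The count at 2-fold was tested on simulated data with planted differences larger than 2-fold. That simulation did not address a group shift made of smaller differences. The members and lists were chosen with earlier results of these data known. The named genes are the immunoproteasome genes, their constitutive counterparts, the lowest and highest gene of each class in each contrast, the genes 2-fold apart between genotypes, and the lowest and highest of each list. Further members and families were added after their values were seen. Alternatives were the floor, the choice of probe set, centring, an added constant, the size rule and cyclic loess (limma 3.58.1). Sequences are from RefSeq.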

Additional observations from a re-analysis of the deposited data

Results flagged for a closer look

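Opposite signs of any size in the 2 progenitors were common: 19 genes were lower in GMP and higher in MDP, and 3 the other way. Of all genes above the floor, 29.5% and 22.9% were so. In 4 of the proteasome genes both differences also exceeded the SD between probe sets over all genes (0.372 in GMP and 0.383 in MDP). The share of all genes that pass both limits is not given here. Over the proteasome genes with several probe sets that SD was 0.480 in GMP and 0.466 in MDP, and only Psmd7 exceeded both. Psmd7 differed by -1.08 in GMP and 0.58 in MDP, Psmd4 by -1.07 and 0.44, Psmc3ip by -0.71 and 0.38, and Psma6 by -0.48 and 0.42. With 1 array per group these differences between progenitors were not tested. Other probe sets of the genes did not all show it. The second probe set of Psmc3ip gave -1.12 in GMP and -1.14 in MDP. A second one of Psma6, nearly as bright, gave -0.84 and -0.04. The further ones of Psmd4 gave -0.77 and 0.08, and 0.46 and -0.19, and those of Psmd7 -0.07 and 0.06, and 0.34 and 0.66.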

How the results depend on the processing

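The median difference of the proteasome genes moved by less than the SD between probe sets under the alternatives run for it, and ranged from -0.61 to -0.38 in Trib1-/- minus WT in GMP, from -0.13 to -0.01 in MDP, and in MDP minus GMP from -0.91 to -0.62 in WT and from -0.52 to -0.20 in Trib1-/-. Counts of genes 2-fold apart moved more. In Trib1-/- minus WT in GMP the count of 3 was 0 with probe sets averaged, 1 with arrays centred, 0 with 32 added to the linear values, 21 at 1.5-fold and 0 at 4-fold. In Trib1-/- minus WT in MDP the count of 3 was 0 with 32 added, 5 at 1.5-fold and 0 at 4-fold. In MDP minus GMP in WT the count of 20 was 13 with probe sets averaged, 3 with 32 added, 35 at 1.5-fold (33 lower and 2 higher) and 2 at 4-fold. That count was 14 with arrays centred and 16 with cyclic loess. In Trib1-/- the count of 3 was 0 with 32 added, 15 at 1.5-fold and 1 at 4-fold. Adding 32 shrinks differences of weak genes by construction, and the counts at 1.5-fold and 4-fold follow from their cuts. Averaging took in probe sets below the floor as well. The cause of the shifts with averaged probe sets, centred arrays or cyclic loess was not tested. Of the class medians only that of the 3 assembly genes moved: in Trib1-/- minus WT in MDP it was -0.58 with low values raised to the floor and -0.33 with 32 added, and in MDP minus GMP in Trib1-/- it was -0.82 without the floor, -0.59 with probe sets averaged and -0.53 with 32 added. For Psma1, MDP minus GMP in WT was 0.0753 with its probe sets averaged, against -1.08. Of the other values of single genes under alternatives, 52 moved by more than that SD and 847 by less. Leaving out Psmc3ip and Psme3ip1 was chosen after seeing the data and moved no median or count past these limits. Psmd5, Psmd9 and Psmd10 were left out, also after seeing the data, of the non-ATPase class only. Its median did not move past the limit in any contrast. No paired analysis was possible because each group has 1 array. Values near the floor limit Psmc5 and Psmg1.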

Other observations

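In some genes the probe sets read differently. The brightest probe set of Psmd11 gave 0.15 in Trib1-/- minus WT in GMP and 0.22 in WT MDP minus GMP, while another gave -0.64 and -1.02. Psmc2 gave -0.88 and -0.60 in GMP with its 2 brightest probe sets and 0.29 with another. Psmc4 gave -0.46 and -0.86 in GMP and 0.21 and 0.49 in MDP with its pair of probe sets. Psme3 gave -0.58 and -0.67 in GMP, and Psma5 -0.61 and -0.64. A weak probe set of Psmc6 gave 1.87 in Trib1-/- minus WT in MDP, where the brightest gave 0.06.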
